A study of Mus musculus with 12 samples.

Results

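Proliferation and mitosis genes were examined in RNA sequencing of mouse brain taken after cranial irradiation. The set holds 36 genes of S phase and mitosis, matched by gene symbol, with no measured value in the rule but with earlier results of these data known, and each of the 36 was found among the 23183 symbols of every library. Male C57BL/6 mice, bought at 7 weeks of age and acclimatized for 1 week, were given 10 Gy to the head once (IR) or were sham-irradiated (Con). Cortex and hippocampus were collected 3 months later, and each tissue gave 3 Con and 3 IR libraries, 12 in all. All groups share the strain and the sex, and sham-treated mice are the only controls. Whether each library came from a single mouse, or the cortex and hippocampus libraries from the same mice, is not given in the sources used here, so p values measure the spread between these libraries. The values are FPKM, that is fragments per kilobase of transcript, corrected for how many fragments a library had mapped.

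Cells that divide copy their DNA in S phase, when the MCM helicase opens the double strand and PCNA, a ring that slides along DNA, holds the polymerases in place. Mitosis then needs cyclin-dependent kinase 1 with the B-type cyclins, the Aurora and Polo kinases, a spindle of motor proteins, and a checkpoint that holds back the anaphase-promoting complex until every chromosome is attached. In the adult brain few cells divide. Known exceptions are progenitors of the dentate gyrus in the hippocampus, oligodendrocyte precursors, and microglia or blood-borne cells when they expand, and neural progenitors are known to be sensitive to radiation.

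The libraries carried the marker genes of their labelled tissues. The summed FPKM of 4 dentate gyrus genes (*Prox1*, *C1ql2*, *Dsp*, *Lct*) was 79.1 to 108 in the hippocampus and 4.44 to 6.4 in the cortex. Within the hippocampus this sum was higher in IR without overlap (98.6, 97.2 and 79.1 in Con, 99.3, 108 and 104 in IR, ratio of means 1.13), and its part in the members' values was not tested. The steps between the lowest values implied 15400000 to 17500000 fragments per library. Summed FPKM of 5 ependyma and choroid plexus genes ranged from 4.43 to 1635, with the highest values in hippocampus IR 1, hippocampus Con 2 (1045) and cortex IR 2 (437). T cell genes summed to 2.17 FPKM in hippocampus Con 1 and to between 0.282 and 0.912 in the other 11 libraries. *Alas2*, an enzyme of heme synthesis in red cell precursors, was also highest there, at 22.5 FPKM against 0.773 to 1.86 elsewhere, while the sum of 4 erythroid genes overlapped between groups in both tissues. The part of these genes in the members' values of Con 1 was not tested. Leaving out hippocampus Con 3 raised the number of genes with an adjusted p under 0.05 in the hippocampus from 4 to 861. The column names of the cortex and the hippocampus carry different suffixes, so tissue and any run that these mark cannot be told apart.

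Most of the members were close to the lower end of what these libraries could measure. In the Con cortex the members' mean FPKM ran from 0.0388 to 30.0 with a median of 0.560, and in the Con hippocampus from 0.069 to 32.9 with a median of 0.535. *Pcna* alone made up, as a mean over the 6 libraries of a tissue, 40.9% of the summed FPKM for the cortex and 43.2% for the hippocampus. By the longest annotated transcript, *Pcna* stood for about 673 to 843 fragments per library. *Mki67*, the gene of the Ki-67 antigen that coats mitotic chromosomes, stood for about 7.1 to 34.3, and *Cdk1*, the kinase that starts mitosis, for about 0 to 7.2. Genes were tested in a tissue when 3 or more of its 6 libraries reached 0.5 FPKM. This left 21 members for the cortex and 20 for the hippocampus. The median over the 12 libraries ran from about 2.5 fragments (*Aurkb*) to about 33.4 (*Cenpe*) for the members below the filter in both tissues, and no p is given for members below the filter.

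**Figure D1:**
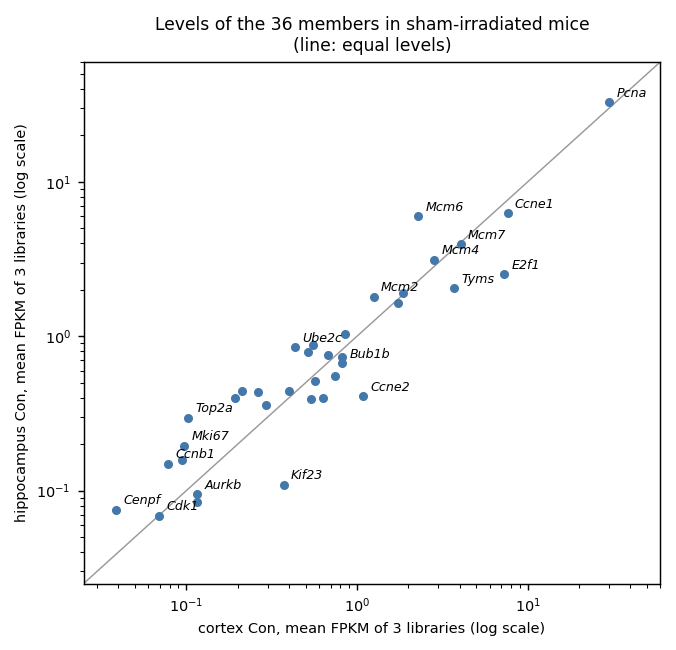
Mean FPKM of each of the 36 members in the 3 Con libraries of the cortex (x axis) and of the hippocampus (y axis). Both axes are on log scales, and the line marks equal levels. *Pcna* stands far above the rest, at 30.0 and 32.9 FPKM, and *E2f1* and *Mcm6* lie farthest from equal levels among the well-expressed members.

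Between the unirradiated tissues, 20 members could be tested, and 5 differed at an adjusted p under 0.05, where 36.3% of all genes did (7 members and 45.7% of all genes without adjustment). *Mcm6*, a subunit of the replication helicase, was measured at 4.78, 7.15 and 6.03 FPKM in hippocampus Con and at 2.28, 2.32 and 2.25 in cortex Con, and was higher in the hippocampus (log2 difference on the log2(FPKM + 1) scale 1.08, SE 0.13, limma adjusted p = 0.000152). *Mcm2* was also higher there (0.32, SE 0.11, adjusted p = 0.0464). *E2f1*, a transcription factor that switches on S phase genes, stood at 2.51, 2.71 and 2.36 FPKM in hippocampus Con against 8.18, 7.16 and 6.51 in cortex Con and was lower in the hippocampus (-1.23, SE 0.10, adjusted p = 1.62e-05). *Tyms*, thymidylate synthase, and *Ccne2*, cyclin E2, were lower as well (-0.64, SE 0.14, adjusted p = 0.00554, and -0.56, SE 0.11, adjusted p = 0.00270). The call of *Mcm2* was lost with no filter on low values (adjusted p = 0.0580), with a pseudocount of 0.1 (0.0534), with the replicate number as a block (0.0614) and in most fits that left out a library.

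Upstream sequence is shown for 4 members, each with Con and IR apart in a tissue: *Top2a*, the topoisomerase that untangles chromosomes, and *Bub1b*, *Mcm6* and *Pcna*. It was taken from RefSeq on GRCm38.p6 (29 of the 36 members had an entry) and covers the 250 bases before the transcription start, written in the direction of transcription. Capitals mark matches, on either strand, to the cell cycle homology region or CHR (TTTGAA or TTCGAA), the CCAAT box (CCAAT, read as ATTGG on the other strand) and an E2F motif (TTCCCGC or TTGGCGC). The CHR is known as a site of the DREAM complex, which keeps cell cycle genes off in resting cells, and of the B-MYB and FOXM1 activators. *Top2a* is at chr11:99024190-99024439 (minus strand), *Bub1b* at chr2:118597961-118598210 (plus strand), *Mcm6* at chr1:128359706-128359955 (minus strand) and *Pcna* at chr2:132253181-132253430 (minus strand).
Top2a: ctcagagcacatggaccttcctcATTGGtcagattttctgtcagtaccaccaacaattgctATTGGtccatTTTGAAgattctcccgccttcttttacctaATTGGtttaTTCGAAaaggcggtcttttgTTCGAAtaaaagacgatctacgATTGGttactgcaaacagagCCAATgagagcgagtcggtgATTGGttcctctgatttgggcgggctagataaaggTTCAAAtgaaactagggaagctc
Bub1b: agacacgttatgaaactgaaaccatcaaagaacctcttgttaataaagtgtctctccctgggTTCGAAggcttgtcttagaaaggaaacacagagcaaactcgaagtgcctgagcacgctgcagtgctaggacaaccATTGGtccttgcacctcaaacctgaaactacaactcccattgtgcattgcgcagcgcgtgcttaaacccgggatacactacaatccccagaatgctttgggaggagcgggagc
Mcm6: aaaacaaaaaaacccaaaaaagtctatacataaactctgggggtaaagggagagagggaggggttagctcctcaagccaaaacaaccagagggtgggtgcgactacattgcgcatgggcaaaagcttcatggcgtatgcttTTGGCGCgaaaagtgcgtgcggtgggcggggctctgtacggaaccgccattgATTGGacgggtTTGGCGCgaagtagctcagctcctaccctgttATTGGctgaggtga
Pcna: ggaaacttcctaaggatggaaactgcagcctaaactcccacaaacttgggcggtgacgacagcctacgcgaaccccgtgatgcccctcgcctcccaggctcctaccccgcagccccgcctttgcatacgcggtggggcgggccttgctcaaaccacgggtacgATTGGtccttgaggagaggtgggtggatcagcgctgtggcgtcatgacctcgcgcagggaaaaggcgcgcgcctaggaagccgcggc
The *Top2a* window held 4 CHR matches and 6 CCAAT boxes, the *Bub1b* window 1 of each, the *Mcm6* window 2 CCAAT boxes and 2 E2F matches, and the *Pcna* window 1 CCAAT box. A CHR match was found in 10 of the 29 members (34.5%) and in 17.1% of all 32851 promoter windows of this length. A CCAAT box was found in 23 members (79.3%, against 33.8% of all windows) and an E2F match in 6 (20.7%, against 5.62%). All 10 members with a CHR match also held a CCAAT box, a combination in 6.02% of all windows. A match is a run of letters in the window and was not tested as a binding site.

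No member passed an adjusted p under 0.05 after irradiation in either tissue. In the cortex 0.725% of the 14065 tested genes did, and in the hippocampus 0.0285% of 14043. An unadjusted p under 0.05 was found for 5 cortex members (beside 14.1% of all genes) and for 5 hippocampus members (beside 13.9%). In the cortex, *Bub1b* and *Nusap1* were higher in IR and *Ccne2*, *Mcm6* and *Tyms* lower. In the hippocampus, *Bub1b* and *Tyms* were higher and *Pcna*, *Prc1* and *Mcm2* lower. Among all genes, 8.16% were higher and 5.94% lower by this rule in the cortex, and 7.06% and 6.89% in the hippocampus. The members' counts of 5 among 21 and 5 among 20 stand beside these shares, and nothing particular to the set is read from them. Among the members that passed the filter, Con and IR did not overlap for 1 higher and 3 lower in the cortex (11.2% and 9.09% of all tested genes) and for 2 higher and 5 lower in the hippocampus (10.5% and 9.36%). *Prc1* is in both hippocampus counts although it passed the filter only through its Con libraries, and without it they are 4 members with an unadjusted p under 0.05 and 4 lower without overlap. When each library was left out in turn, an unadjusted p under 0.05 was kept in every fit by *Ccne2*, *Mcm6* and *Nusap1* in the cortex and by *Bub1b* in the hippocampus, and was lost in 1 or more fits by *Bub1b* and *Tyms* in the cortex and by *Tyms*, *Pcna*, *Prc1* and *Mcm2* in the hippocampus. The tested members had a median log2 change of -0.04 (cortex) and -0.02 (hippocampus), beside 0.00 and -0.01 over all genes.

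**Figure D2:**
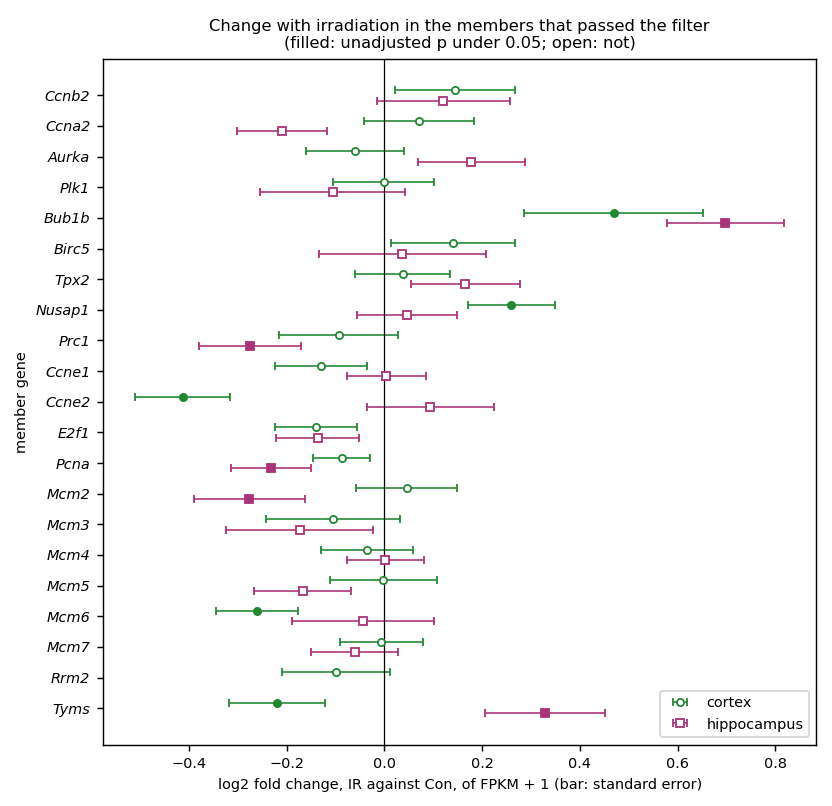
Difference of IR from Con on the log2(FPKM + 1) scale with its standard error for the members that passed the filter, with the cortex and the hippocampus marked apart and 0 as no difference. *Bub1b* lies farthest to the right in both tissues (0.47 and 0.70), *Ccne2* farthest to the left in the cortex (-0.41), and *Tyms* and *Ccne2* lie on opposite sides of 0 in the 2 tissues.

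Among the genes of DNA replication, the helicase subunits and *Pcna* had a lower sum in IR in both tissues, and none passed adjustment. Their summed FPKM was 43.6, 41.9 and 43.7 in cortex Con and 39.7, 40.4 and 41.4 in cortex IR (43.1 ± 0.984 and 40.5 ± 0.833, SD, n = 3, ratio of means 0.941). Hippocampus sums were 52.5, 52.0 and 46.7 in Con and 42.8, 45.9 and 42.9 in IR (50.4 ± 3.22 and 43.9 ± 1.79, ratio 0.870). In both tissues every IR library lay below every Con library. Of the 7 genes, 6 had a fitted difference below 0 in each tissue, *Mcm2* being the exception in the cortex and *Mcm4* in the hippocampus, where 6963 of 14065 and 7407 of 14043 tested genes did. The cortex differences of *Mcm4* (-0.04), *Mcm5* (0.00) and *Mcm7* (-0.01) were close to 0 and changed sign when 1 library was left out.

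*Pcna* carried most of that sum. In the hippocampus it stood at 36.1, 33.3 and 29.2 FPKM in Con and at 28.0, 28.1 and 27.2 in IR, without overlap, and the difference was -0.23 (SE 0.08, limma adjusted p = 0.312). In the cortex it stood at 29.4, 29.4 and 31.3 in Con and at 27.8, 27 and 29.8 in IR, where the groups overlapped (-0.09, SE 0.06, adjusted p = 0.539). PCNA also serves DNA repair, and its RNA is not limited to dividing cells. The difference between the tissues was -0.14 (SE 0.10, adjusted p = 0.626). Without hippocampus Con 3, the lowest of its Con values, *Pcna* in the hippocampus reached a limma adjusted p of 0.0362, in a fit in which 861 genes passed.

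*Mcm6* had IR below Con without overlap in the cortex and overlapping groups in the hippocampus. Its cortex values were 2.28, 2.32 and 2.25 FPKM in Con and 1.73, 1.82 and 1.67 in IR (2.28 ± 0.0329 and 1.74 ± 0.0742, SD, n = 3), with a difference of -0.26 (SE 0.08, limma adjusted p = 0.211). In the hippocampus, 4.78, 7.15 and 6.03 FPKM in Con stood beside 5.31, 6.85 and 5.09 in IR (-0.04, SE 0.15, adjusted p = 0.906). The difference between the tissues was 0.22 (SE 0.17, adjusted p = 0.674). The range within each hippocampus group was wider than the difference between the cortex groups.

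*Mcm2*, another helicase subunit often used to mark cells licensed to replicate, was measured at 1.60, 1.87 and 1.95 FPKM in hippocampus Con and at 1.20, 1.14 and 1.62 in IR. The highest IR library passed the lowest Con library, and the difference was -0.28 (SE 0.11, limma adjusted p = 0.347). In the cortex it was 1.38, 1.03 and 1.34 in Con and 1.19, 1.5 and 1.27 in IR, with a difference of 0.05 (SE 0.10, adjusted p = 0.887). *Mcm5* in the hippocampus was 1.63, 1.74 and 1.53 in Con and 1.4, 1.5 and 1.15 in IR, without overlap, at an adjusted p of 0.461. *Mcm3*, *Mcm4* and *Mcm7* overlapped between the groups in both tissues. Their values in the cortex were 0.950, 0.907 and 0.700 FPKM (Con) and 0.572, 1.12 and 0.521 (IR) for *Mcm3*. For *Mcm4* they were 3.17, 2.48 and 2.87 in Con and 2.64, 2.88 and 2.70 in IR, and for *Mcm7* 4.25, 4.11 and 3.81 in Con and 3.93, 4.44 and 3.75 in IR. None of these cortex differences was larger than its spread. In the hippocampus *Mcm3* was 1.34, 1.00 and 0.775 in Con and 0.511, 1.02 and 0.901 in IR, *Mcm4* 3.27, 3.08 and 3.05 against 2.99, 3.19 and 3.24, and *Mcm7* 3.84, 3.84 and 4.19 against 3.41, 4.17 and 3.70. *Mcm5* in the cortex was 2.14, 1.67 and 1.43 in Con and 1.84, 1.65 and 1.69 in IR, a difference near 0.

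**Figure D3:**
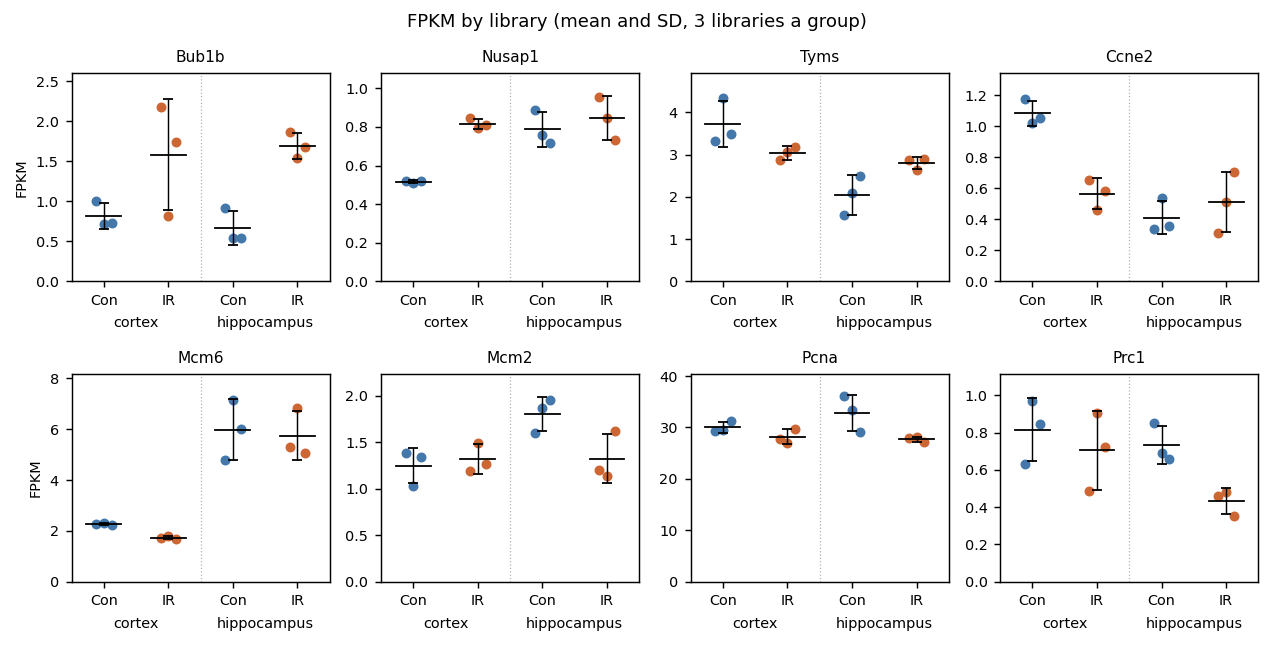
FPKM in each library of the members with an unadjusted p under 0.05 in a tissue, by tissue and group, with bars for the mean and the SD of 3 libraries and the y axes starting at 0. The 3 IR libraries of *Bub1b* in the hippocampus lie between 1.54 and 1.86, above all Con libraries, and those of *Tyms* lie below Con in the cortex and above it in the hippocampus.

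Among the enzymes that make nucleotides, *Tyms* had Con and IR in opposite order in the cortex and the hippocampus. *Tyms*, which makes thymidylate, was 3.33, 4.34 and 3.5 FPKM in cortex Con and 2.86, 3.06 and 3.18 in cortex IR (3.72 ± 0.542 and 3.04 ± 0.160, SD, n = 3). Its hippocampus values were 1.56, 2.09 and 2.50 in Con and 2.87, 2.64 and 2.90 in IR (2.05 ± 0.472 and 2.80 ± 0.141). The groups did not overlap in either tissue. The cortex difference was -0.22 (SE 0.10, limma adjusted p = 0.351) and the hippocampus difference 0.33 (SE 0.12, limma adjusted p = 0.326). The interaction, the hippocampus difference minus the cortex difference, was 0.55 (SE 0.16, limma adjusted p = 0.293), and without hippocampus Con 3 its adjusted p was 0.0383, in a fit in which 487 genes passed instead of 12. *Rrm2*, a subunit of ribonucleotide reductase, passed the filter only in the cortex, where 0.562, 0.952 and 0.727 in Con overlapped with 0.611, 0.723 and 0.545 in IR. *Tk1*, thymidine kinase, was at or below 0.520 FPKM in every library.

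Of the regulators of the step into S phase, *Ccne2* differed most in the cortex. Cyclin E2 binds CDK2 to start replication, and its gene was measured at 1.18, 1.02 and 1.05 FPKM in cortex Con and at 0.653, 0.459 and 0.583 in cortex IR. The groups were well apart (1.08 ± 0.0825 and 0.565 ± 0.0982, SD, n = 3), with a difference of -0.41 (SE 0.10, limma adjusted p = 0.1). In the hippocampus the values were 0.338, 0.535 and 0.359 in Con and 0.314, 0.513 and 0.704 in IR and overlapped (0.09, adjusted p = 0.758). The interaction was 0.51 (limma adjusted p = 0.305), and among all 14459 genes of that fit 10.4% had an unadjusted p under 0.05 while 0.0830% passed the adjusted threshold. *Ccne2* and *Tyms* were the 2 members counted there. *Ccne1*, the other cyclin E, overlapped between groups in both tissues, at 5.76 to 8.56 FPKM. *Foxm1*, which switches on mitotic genes, ran from 0.213 to 0.422 and overlapped as well. *E2f1* was 2.51, 2.71 and 2.36 in hippocampus Con and 2.12, 2.23 and 2.27 in IR, lower without overlap (-0.14, adjusted p = 0.478).

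Among the tested members *Bub1b* showed the largest fitted difference in either tissue. Its product BUBR1 is a kinase-like protein of the spindle checkpoint that inhibits the anaphase-promoting complex. In the hippocampus it stood at 0.917, 0.546 and 0.538 FPKM in Con and at 1.86, 1.54 and 1.68 in IR (0.667 ± 0.216 and 1.69 ± 0.163, SD, n = 3, ratio of means 2.54). No IR library overlapped with a Con library. The difference was 0.70 (SE 0.12, limma adjusted p = 0.214), and *Bub1b* was the only member with a fold of at least 1.5 on the log2(FPKM + 1) scale and an unadjusted p under 0.05, a rule met upward by 0.242% of all genes there and by 0.391% in the cortex. In the cortex it was 1.01, 0.718 and 0.732 in Con and 2.18, 0.821 and 1.74 in IR. Cortex IR 2 lay inside the Con range there (0.47, SE 0.18, adjusted p = 0.294). The cortex difference was 0.70 without IR 2 (adjusted p = 0.0811) and 0.30 without IR 1 (adjusted p = 0.688). The difference between the tissues was 0.23 (adjusted p = 0.760). Without hippocampus Con 3 the limma adjusted p of *Bub1b* in the hippocampus was 0.0395. The gene lies at chr2:118598211-118641591 on GRCm38 with no annotated gene overlapping it. Of its neighbours, looked at after these values were seen, *Pak6* was lower in the irradiated hippocampus (-0.20, adjusted p = 0.341) and *Bmf* was at 0.01 (adjusted p = 0.981).

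No other checkpoint or anaphase gene of the set passed the filter in either tissue. *Bub1*, the kinase of the same checkpoint, was at or below 0.217 FPKM in every library, with overlapping groups. *Cdc20*, the activator of the anaphase-promoting complex, ran from 0.287 to 0.624 in hippocampus Con and from 0.0322 to 0.603 in IR. *Ube2c*, the ubiquitin-conjugating enzyme of that complex, was 2.09 in hippocampus Con 1, the library with the highest T cell sum, and 0.0745 to 0.370 in the other 5 hippocampus libraries. Its ratio of IR to Con means there was 0.258, and 0.967 without Con 1. In the cortex *Ube2c* stood at 0.232, 0.457 and 0.613 in Con and at 0.152, 0.0738 and 0.149 in IR, without overlap. *Ube2c* and *Cdk1* were the 2 members below the filter that were lower in the irradiated cortex without overlap, an order that 10.1% of all genes below the filter had.

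Among the tested genes of the spindle and the midzone, *Nusap1* was higher in the cortex without overlap (an order of 11.2% of all tested genes) and *Prc1* lower in the hippocampus (9.36%). *Nusap1*, which bundles spindle microtubules, was 0.521, 0.509 and 0.521 FPKM in cortex Con and 0.846, 0.795 and 0.809 in cortex IR (ratio of means 1.58), and the difference was 0.26 (SE 0.09, limma adjusted p = 0.244). In the hippocampus it was 0.889, 0.758 and 0.715 in Con and 0.956, 0.848 and 0.732 in IR and overlapped (0.05, adjusted p = 0.863). *Nusap1* overlaps *Oip5* on the opposite strand, and such protein-coding overlaps also exist for *Ccne2* (*Ints8*), *Prc1* (*Rccd1*), *Ccna2* (*Exosc9*) and *Ube2c* (*Tnnc2*). They exist as well for *Mcm7* (*Cops6* and *Ap4m1*), *Cdc20* (*Elovl1*), *Kif20a* (*Cdc23*) and *Tk1* (*Gm20708* and *Afmid*). The paper's methods name a directional library kit, but whether fragments were counted by strand is not given in the sources used here. Reads of the partner genes in these values therefore cannot be told apart. *Prc1*, the crosslinker of the spindle midzone, was 0.851, 0.693 and 0.660 in hippocampus Con and 0.463, 0.484 and 0.354 in IR, without overlap (-0.27, SE 0.10, limma adjusted p = 0.327). *Prc1* passed the filter in the hippocampus only through its 3 Con libraries, so it had to be lower in IR to be counted, and its count supports nothing. In the cortex *Prc1* overlapped, at 0.634, 0.968 and 0.845 in Con and 0.486, 0.906 and 0.724 in IR (-0.09, adjusted p = 0.783). *Birc5*, survivin of the chromosomal passenger complex, and *Tpx2*, which activates Aurora A on the spindle, stayed under 1 FPKM and overlapped in both tissues. The motors and kinetochore genes *Kif11*, *Kif20a*, *Kif23*, *Cenpe* and *Cenpf* were at or below 0.646 in every library.

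Of the 7 cyclins and kinases of mitosis 4 could be tested in each tissue, and none of these 4 had an unadjusted p under 0.05. *Cdk1*, *Ccnb1* and *Aurkb* were below the filter in both tissues. The summed FPKM of all 7 had ratios of IR to Con of 1.01 (cortex) and 0.927 (hippocampus), with overlap in both. *Ccna2*, cyclin A2 of S phase and G2, was the highest of them, at 1.88, 2.04 and 1.78 FPKM in hippocampus Con and 1.44, 1.65 and 1.43 in IR, lower without overlap (-0.21, limma adjusted p = 0.36). *Aurka* and *Plk1*, the Aurora A and Polo-like kinases, lay between 0.444 and 1.24 in all libraries, and their groups overlapped. *Cdk1* was 0.0834, 0.0625 and 0.0624 in cortex Con and 0.0206, 0 and 0.0202 in IR, a separation of a few fragments. Hippocampus values of 0.0644, 0.0421 and 0.1 in Con and 0.0765, 0.0394 and 0.0198 in IR overlapped. *Ccnb1*, cyclin B1, was at or below 0.245 in every library and *Aurkb*, Aurora B, at or below 0.221. *Ccnb2*, cyclin B2, overlapped at 0.306 to 0.874.

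The members below the filter in the hippocampus leaned one way. All 16 had a lower mean in IR than in Con, with a median ratio of 0.761, whereas 49.3% of the 3400 genes below the filter had a lower mean in IR. In the cortex 6 of 15 such members were lower, with a median ratio of 1.00, and 57.2% of 3557 genes. The cortex count was 6 to 9 when any single library was left out, and 9 without IR 1 or IR 2, with a median ratio of 0.845 without IR 2. The count in the hippocampus was 14 to 16 when any single library was left out, and it was 14 without Con 1 (when *Cenpf* and *Kif23* became higher), without IR 2 and without IR 3. These genes were measured in the same 6 libraries and are not independent of each other. The filter also used the IR values, so it had a part in which members are among the 16. *Ccnb2*, *Ccne2* and *Tpx2* (Con means 0.394, 0.411 and 0.400 FPKM) were higher in IR and passed it mainly through IR libraries. *Rrm2* and *Ube2c* (Con means 0.556 and 0.848 FPKM) were lower in IR and stayed below it. *Prc1*, lower in IR, passed it only through its Con libraries. So the count of 16 supports nothing about low members as a whole. Over the 15 members below the filter in both tissues the summed FPKM in the hippocampus was 5.72, 2.92 and 3.82 in Con and 2.35, 3.35 and 2.43 in IR, with IR 2 inside the Con range (ratio of means 0.652, and 0.804 without Con 1). In bulk tissue, fewer dividing cells and less RNA per cell cannot be told apart.

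*Top2a* and *Mki67*, the usual marks of cycling cells, were read one by one. *Top2a*, whose upstream window held the most CHR and CCAAT matches of those printed, stood at 0.405, 0.188 and 0.297 FPKM in hippocampus Con and at 0.122, 0.135 and 0.136 in IR (0.297 ± 0.109 and 0.131 ± 0.00791, SD, n = 3, ratio of means 0.440). The groups did not overlap, as in 5.97% of all genes below the filter in this direction. In the cortex it was 0.0662, 0.0883 and 0.154 in Con and 0.109, 0.168 and 0.0321 in IR, with a ratio of 1.00. *Mki67* was 0.221, 0.167 and 0.199 in hippocampus Con and 0.159, 0.168 and 0.190 in IR (ratio 0.880), and the groups overlapped. In the cortex it was 0.0447, 0.106 and 0.140 in Con and 0.0775, 0.112 and 0.0814 in IR (ratio 0.931). The ratios of *Top2a* and *Mki67* in the hippocampus were not compared by a test.

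**Figure D4:**
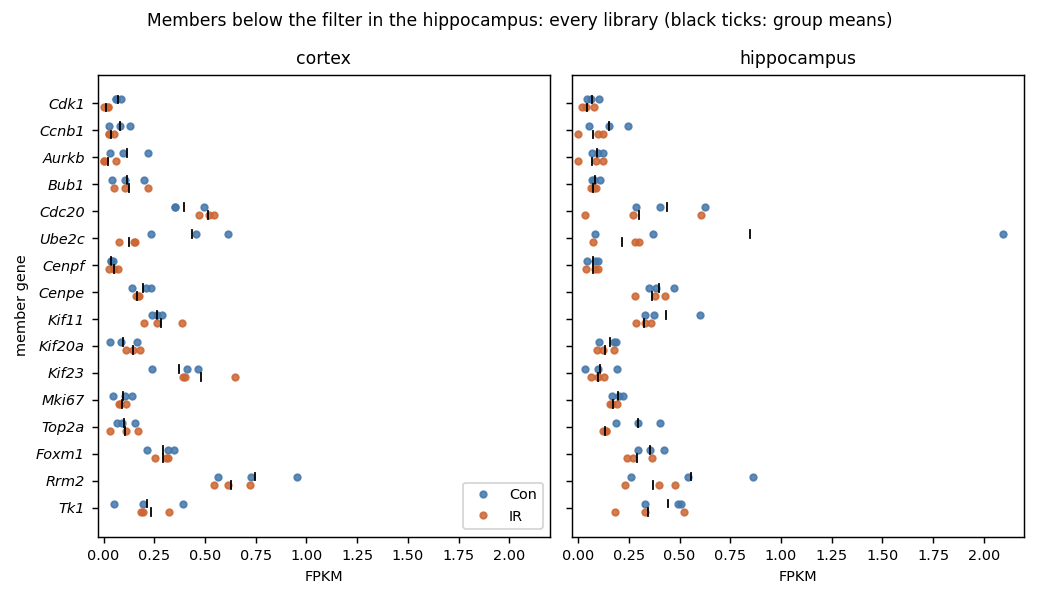
FPKM in each library of the members below the filter in the hippocampus, by tissue and group. Black ticks mark the group means, and the x axes are linear. In the hippocampus each of the 16 IR means lies below its Con mean. The ratios of means run from 0.258 for *Ube2c* to 0.980 for *Cenpf*, whereas the cortex ratios lie on both sides of 1. *Ccnb2*, *Ccne2* and *Tpx2*, higher in IR, passed the filter mainly through IR libraries and are not shown.

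Summed over the 36 members, the level was 74.3, 74.2 and 71.7 FPKM in cortex Con and 68.9, 69.2 and 69.2 in cortex IR (73.4 ± 1.48 and 69.1 ± 0.176, SD, n = 3, ratio of means 0.942). The groups did not overlap. The hippocampus gave 76.8, 74.9 and 68.5 in Con and 64.9, 69.5 and 65.2 in IR (73.4 ± 4.37 and 66.5 ± 2.58, ratio 0.907), where IR 2 lay above Con 3. The sum follows the few abundant members. Without *Pcna* and the 6 MCM genes the ratios were 0.943 (cortex) and 0.987 (hippocampus), and the groups overlapped in both. *Mki67* and *Top2a* together had ratios of 0.968 (cortex) and 0.615 (hippocampus).

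**Figure D5:**
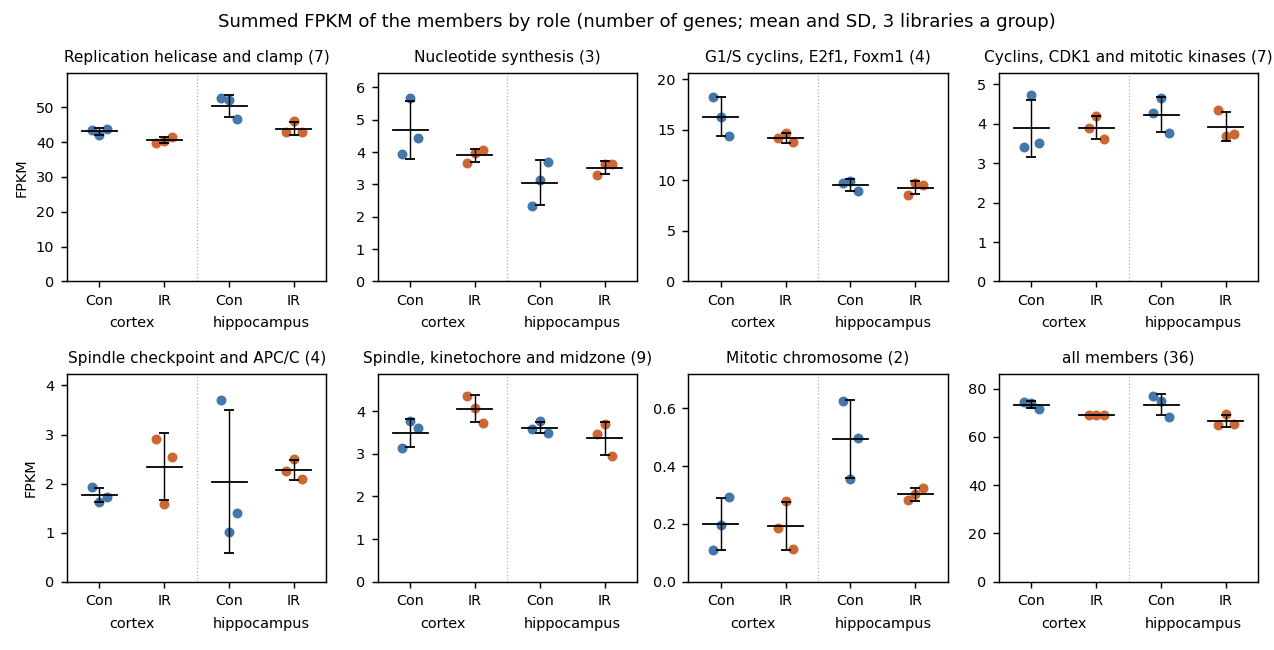
Summed FPKM of the members by role in each library, for Con and IR of both tissues, with the mean and the SD of 3 libraries and y axes starting at 0. The helicase and clamp sum lies lower in IR in both tissues (ratios 0.941 and 0.870), and the sum of *Mki67* and *Top2a* has ratios of 0.968 in the cortex, with overlap, and 0.615 in the hippocampus, without overlap.

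Genes of the same pathways outside the set were read from lists of known members of each process. Of 24 other replication genes, 18 were tested in each tissue and 14 were lower in each, of which 3 (cortex) and 2 (hippocampus) had an unadjusted p under 0.05, none at an adjusted p under 0.05. Over all tested genes, 6963 of 14065 had a fitted difference below 0 in the cortex and 7407 of 14043 in the hippocampus, and 5.94% and 6.89% were lower at an unadjusted p under 0.05. *Chaf1a*, a chaperone that packs new DNA into nucleosomes, was lower in both (-0.40, adjusted p = 0.173 in the cortex, and -0.43, adjusted p = 0.301 in the hippocampus). Their summed FPKM did not overlap in the cortex (ratio 0.911) and overlapped in the hippocampus (0.927). Of 42 other mitosis genes, 19 were tested in each tissue, with 13 higher and 6 lower in the cortex and 8 higher and 11 lower in the hippocampus. At an unadjusted p under 0.05, 2 were higher and 0 lower in the cortex, 1 was higher and 2 (*Mad2l1* and *Smc4*) lower in the hippocampus, and none passed adjustment. Among them *Anln*, anillin of the cleavage furrow, was higher in the cortex (0.43, adjusted p = 0.155), and *Spag5*, astrin of the spindle, was higher in the hippocampus (0.32, adjusted p = 0.286). Of 18 genes of the DREAM and RB-E2F regulators, 14 were tested in the cortex, where 11 were higher and 3 lower, and 13 in the hippocampus, where 7 were higher and 6 lower. At an unadjusted p under 0.05, 4 were higher and 0 lower in the cortex. In the hippocampus 4 were higher and 1 lower, *Lin54* (-0.26, limma adjusted p = 0.300). Of all tested genes 8.16% (cortex) and 7.06% (hippocampus) were higher by this rule. *E2f6*, a repressor of the E2F family, was 0.32 higher in the cortex (adjusted p = 0.0650). *E2f4*, the E2F of the DREAM complex, was 0.18 higher in the cortex (adjusted p = 0.227) and 0.22 higher in the hippocampus (adjusted p = 0.271). The summed FPKM of these regulators was higher in IR without overlap in both tissues (ratios 1.08 and 1.03).

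Markers of the cell types that could hold these transcripts were read in the same libraries. All 6 microglia markers had a fitted difference below 0 in both tissues. Of these, 3 (cortex) and 5 (hippocampus) had an unadjusted p under 0.05 by limma, beside 5.94% and 6.89% of all genes lower. At an adjusted p under 0.05 there were 0. The sum of the 6 microglia markers was 89.0 to 94.0 FPKM in cortex Con and 65.3 to 88.0 in IR. It was 87.2 to 95.6 in hippocampus Con and 64.6 to 72.4 in IR, without overlap in either tissue. Of 6 endothelial markers 5 had a fitted difference above 0 in each tissue. Of these 5, 3 (cortex) and 2 (hippocampus) had an unadjusted p under 0.05, beside 8.16% and 7.06% of all genes higher. At an adjusted p under 0.05 there were 0. The endothelial sums were higher in IR without overlap (ratios 1.22 and 1.19), and *Cldn5* was the most abundant gene in them. The sums of 7 oligodendrocyte precursor markers overlapped between groups in both tissues (ratios 1.06 and 0.955), with single markers on both sides of 0. At an unadjusted p under 0.05 by limma, 2 (*Gpr17*, 0.28, and *Olig2*, 0.23) were higher and 0 lower in the cortex. In the hippocampus 0 were higher and 1 (*C1ql1*, -0.16) lower by this rule, and 0 passed adjustment in either tissue. The sums of 6 neural progenitor and neuroblast markers had ratios of 0.864 and 0.935 and also overlapped. *Dcx*, doublecortin of young neurons, was lower in the irradiated cortex (-0.30, limma adjusted p = 0.202). Of the 6 T cell markers, *Lck* made up most of the sum in the cortex, at 0.147 to 0.828 FPKM, and stood at 0.513 to 0.647 in the hippocampus. *Cd3d*, which defines T cells, was at 0 to 0.0495 in the cortex and reached 0.314 in hippocampus Con 1. The part of these cell types in the members' values was not tested.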

How the data were processed

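The values analysed are FPKM that the authors made and deposited, 1 value per gene symbol and library, for 3 Con and 3 IR libraries of each tissue. Per the paper's methods, the authors ran TopHat for alignment, Cufflinks for FPKM and a geometric normalization, and the submitters' processing notes name TopHat and mm10. The annotation is not given in the sources used here. Extraction is described differently by the methods (RNeasy, poly(A) RNA) and the labels (Trizol, total RNA). FPKM are not counts, so no count test was run, and fragments were only approximated from the steps between low values and the GENCODE M21 transcript lengths on GRCm38. The step was taken between 0.045 and 0.085 FPKM times kilobases.

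Groups came from the sample labels. Genes that reached 0.5 FPKM in 3 or more of a tissue's 6 libraries were tested on log2(FPKM + 1) with limma 3.58.1 in R 4.3.3 (trend and robust prior), with Benjamini-Hochberg adjustment over all tested genes. Cortex and hippocampus were fitted apart, the interaction over all 12 libraries and the tissue comparison over the 6 Con libraries. An exact permutation test of 3 against 3 libraries cannot go below p = 0.1. Summed FPKM were described without a test. The fit was tested on simulated data. No pair of libraries held identical values (0 pairs).

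The members and the lists were chosen with earlier results of these data known. Values in every library are given for members with an unadjusted p under 0.05 in a tissue or the interaction and for *Mki67*, *Top2a*, *Cdk1*, *Pcna* and *Mcm2* to *Mcm7*, and of the other lists at least the gene with the smallest p in a tissue is named. Values of some other members are given where their groups did not overlap or beside those. Alternatives were other filters, a pseudocount of 0.1, quantile normalization, median ratio size factors, no trend or robust prior, a replicate block and leaving out each library. Python 3.11.15 and matplotlib 3.10.9 were used for the figures.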

Additional observations from a re-analysis of the deposited data

Results flagged for a closer look

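*Tyms* and *Ccne2* had an unadjusted p under 0.05 in the test of whether the difference between IR and Con differed between the tissues, and neither passed adjustment. For *Tyms* the hippocampus difference minus the cortex difference was 0.55 on the log2(FPKM + 1) scale (limma adjusted p = 0.293), with IR below Con in the cortex and above it in the hippocampus. For *Ccne2* it was 0.51 (limma adjusted p = 0.305), with IR below Con in the cortex and overlapping groups in the hippocampus. They were 2 of 21 members tested, and 10.4% of all genes in that fit had an unadjusted p under 0.05, so the count is near the background.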

How the results depend on the processing

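The number of members at an adjusted p under 0.05 was 0 for irradiation in each tissue and in the interaction, and it was above 0 only in fits that left out a library. Those ranges were 0 to 0 in the cortex, 0 to 2 in the hippocampus (2 without Con 3), 0 to 1 in the interaction (1 without hippocampus Con 3, when 487 genes passed) and 4 to 5 between the Con tissues. At an unadjusted p under 0.05 the ranges were 3 to 5, 2 to 4, 2 to 4 and 4 to 7. The ratio of the summed FPKM was 0.931 to 0.948 in the cortex and 0.877 to 0.928 in the hippocampus. With at least 1 FPKM in every library 2 members of the cortex had p under 0.05 (5 as reported), where fewer members were tested. The interaction gave 4 with no filter and 5 without trend and robust prior (2 as reported), and the Con tissues gave 13 with no filter (7 as reported). With every member weighed the same the cortex ratio was 0.902, and without *Pcna* and the MCM genes the hippocampus ratio was 0.987. The cause of these shifts was not tested.

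Some differences changed sign. Cortex *Mcm5* was 0.00191 with a pseudocount of 0.1 and 0.00989 after quantile normalization, and hippocampus *Mcm4* was -0.00741 after quantile normalization. With 1 library left out, cortex *Mcm2* ranged from -0.0269 to 0.0879, *Mcm4* from -0.105 to 0.0254, *Mcm5* from -0.0877 to 0.0979, *Mcm7* from -0.0622 to 0.0347 and *Prc1* from -0.178 to 0.00214. Hippocampus *Mcm4* ranged from -0.0153 to 0.0290 and *Mcm6* from -0.175 to 0.0740. In the interaction *Bub1b* (0.23 as reported) ranged from -0.00338, without cortex IR 2, to 0.399, *Mcm3* from -0.163 to 0.0846, *Mcm4* from -0.0234 to 0.107 and *Mcm7* from -0.116 to 0.00104, and *Mcm5* between the Con tissues ranged from -0.138 to 0.0479.

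With the replicate number as a block, 0 members were called in the cortex, the hippocampus and the interaction and 4 between the Con tissues, and 5, 4, 2 and 7 had an unadjusted p under 0.05. The pairing was checked by the correlation of deviations from the group means, which was 0.11, -0.11 and -0.04 for the same-numbered libraries of the cortex and -0.39, -0.15 and -0.09 for those of the hippocampus. Between the tissues it was 0.02, -0.04 and 0.18 for Con and -0.05, -0.01 and 0.11 for IR. By these values the numbers were not taken to pair the libraries, and whether the tissues share mice is not given in the sources used here.

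About 15400000 to 17500000 fragments per library put the members below the filter in both tissues at medians of about 2.5 to 33.4 fragments, which limits the precision of their ratios.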
